A study of Homo sapiens with 8 samples.

Results

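MicroRNA and snoRNA host genes are transcription units that carry microRNAs or small nucleolar RNAs (snoRNAs) inside their own transcripts. Here they were followed in nascent transcription data from HCT116 cells, a colorectal carcinoma line. They were chosen by symbol alone, as genes named MIR with the ending HG (microRNA hosts, called MIR hosts below) or SNHG with a number (snoRNA hosts), without MIR210HG. 63 such symbols stood in the tables, 46 MIR hosts and 17 SNHG genes. Of these, 42 reached more than 0.5 reads per 1000000 reads of the library (CPM) in at least 2 libraries in the gene body or at the transcription start site (TSS), and these 42, 27 MIR hosts and 15 SNHG genes, are the host genes described here, of 23193 genes in all. In gene bodies 41 of them could be tested and at the TSS 35, with 34 in both. In bodies 35 of the 41 were above the filter in all 8 libraries, and at the TSS 34 of the 35. MIR7-3HG was tested at the TSS alone. The other 21 symbols were too low in both tables, among them the hosts of miR-155 (MIR155HG, at most 1 body read in any library), miR-205 (MIR205HG, 0 body reads) and miR-99a (MIR99AHG, at most 4).

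Nascent RNA was measured by precision run-on sequencing (PRO-seq), which maps where RNA polymerases are extending transcripts at the moment the cells are collected. The 8 libraries came from 4 groups of 2. Wild-type (WT) HCT116 cells and a HIF1A-/- derivative were each kept in normoxia or exposed to hypoxia at 1% O2 for 90 min, and all cells received DMSO, the vehicle used alone here. HIF1A encodes the oxygen-regulated subunit of hypoxia-inducible factor 1. The knockout line was made by homologous recombination with a viral vector that disrupted a pair of exons, and each genotype was a single line, so a difference between the lines is a difference between these lines and cannot be told apart from clonal drift. The submitters call the 2 libraries of a group independent biological replicates. They are bulk samples, in which fewer transcribing cells and less RNA per cell cannot be told apart.

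Each library held 18125234 to 23622392 reads in gene bodies and 2783581 to 5966348 in TSS windows. The host genes took 0.775% to 0.933% of the body reads and 0.899% to 1.88% of the TSS reads. Reads over HIF1A itself did not separate the lines (134 and 150.1 CPM in WT normoxia, 157 and 141 CPM in HIF1A-/- normoxia, log2 fold change 0.07, SE 0.16, adjusted p = 0.991 by edgeR). Counts over the whole body do not look at the disrupted exons, so they check nothing about the genotype. Of 10 epithelial and colorectal markers, 8 were above the filter, with a summed body level of 854 to 1230 CPM. CEACAM5 and CDX1 were below it and VIL1 was near 0. The blood markers PTPRC, CD3E and HBB were all below the filter, at 0.148 to 0.740 CPM in sum. Of 3 fibroblast markers 2 passed the filter, COL1A1 at 19 to 50.3 CPM and PDGFRB at a lower level, while COL1A2 was near 0. Of the endothelial markers CDH5 passed the filter and PECAM1 did not.

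A microRNA is cut out of a longer primary transcript in the nucleus and trimmed in the cytoplasm, and the mature strand then guides Argonaute proteins to mRNAs that pair with its seed, the bases near its 5′ end. Many microRNAs lie in introns or exons of long noncoding transcripts, and some host transcripts carry a whole cluster. Most human snoRNAs lie in introns and are released when the spliced-out intron is trimmed. Box C/D snoRNAs guide methylation and box H/ACA snoRNAs guide pseudouridylation of ribosomal RNA. Several SNHG transcripts begin at a C followed by a tract of pyrimidines, as mRNAs of the translation machinery do, and their spliced exons are known to be degraded quickly in the cytoplasm. Transcription of the host is therefore the first step that supplies these small RNAs, and PRO-seq is meant to read this step. Gene body counts can also cover the stretches that encode the small RNAs. Any reads from mature small RNAs there would be counted with the nascent ones.

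By RefSeq gene coordinates (GRCh38.p14), 41 of the 42 host genes were found, and each of those contained at least 1 small RNA. The 26 MIR hosts found held 47 microRNAs, and 13 of them held more than 1 small RNA. MIR17HG held 6 (MIR17, MIR18A, MIR19A, MIR20A, MIR19B1 and MIR92A1) and MIR100HG held 4 (MIR125B1, MIRLET7A2, MIR10526 and MIR100). Among the SNHG genes 5 held box C/D snoRNAs (15 in all), 7 held box H/ACA snoRNAs (16 in all) and 4 held small Cajal body RNAs, the relatives that modify spliceosomal RNA. SNHG1 carried 8 named box C/D snoRNAs, SNORD22 and SNORD25 to SNORD31. SNHG12 carried SNORD99 with SNORA61, SNORA44 and SNORA16A, and SNHG20 was the one SNHG gene with a microRNA, MIR6516.

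The mature microRNAs below belong to the host genes that the line comparisons turn on and to the clusters with shared seeds. They are RefSeq sequences on GRCh38.p14, 5′ to 3′, with the seed (bases 2 to 8) in capitals. The first 2, from MIR181A1HG at chr1:198859108-198859130 and chr1:198858925-198858947 (minus strand), are encoded a second time in MIR181A2HG, at chr9:124692480-124692502 and chr9:124693725-124693747 (plus strand), so 2 host genes yield the same mature RNA and the same seed.
miR-181a-5p: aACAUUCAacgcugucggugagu
miR-181b-5p: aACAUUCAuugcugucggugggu
MIR22HG carries miR-22 (chr17:1713914-1713935, minus strand) and MIR194-2HG carries miR-192 and miR-194 (chr11:64891203-64891223 and chr11:64891404-64891425, minus strand), a pair known for high levels in gut epithelium. No seed is shared among them.
miR-22-3p: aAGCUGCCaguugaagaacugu
miR-192-5p: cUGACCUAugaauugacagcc
miR-194-5p: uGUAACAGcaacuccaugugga
MIR17HG holds 2 seeds that each occur more than once in the cluster, AAAGUGC and GUGCAAA.
miR-17-5p: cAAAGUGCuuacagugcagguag
miR-20a-5p: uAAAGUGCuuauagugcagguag
miR-19a-3p: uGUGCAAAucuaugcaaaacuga
miR-19b-3p: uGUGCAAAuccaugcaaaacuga
MIR100HG and MIRLET7BHG share the seed GAGGUAG of the let-7 family. let-7a comes from both (chr11:122146568-122146589, minus strand, and chr22:46112752-46112773, plus strand) and let-7b from MIRLET7BHG (chr22:46113691-46113712, plus strand).
let-7a-5p: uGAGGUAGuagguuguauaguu
let-7b-5p: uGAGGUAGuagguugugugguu

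The 2 snoRNAs below show what the 2 kinds of snoRNA host carry in an intron. They are read from GRCh37 with lifted GENCODE v44 annotation. SNORD1B (chr17:74557191-74557274, plus strand, 84 nt) is intronic in 17 of the 17 SNHG16 transcripts that span it. Capitals mark the letters that match the C box, at bases 9 to 15, and the D box, at bases 74 to 77. SNORA73B (chr1:28835071-28835274, plus strand, 204 nt) is intronic in 2 of 2 SNHG3 transcripts, and capitals mark the ACA letters 3 bases from its 3′ end.
SNORD1B: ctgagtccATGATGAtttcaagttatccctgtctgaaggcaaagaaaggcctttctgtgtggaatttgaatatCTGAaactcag
SNORA73B: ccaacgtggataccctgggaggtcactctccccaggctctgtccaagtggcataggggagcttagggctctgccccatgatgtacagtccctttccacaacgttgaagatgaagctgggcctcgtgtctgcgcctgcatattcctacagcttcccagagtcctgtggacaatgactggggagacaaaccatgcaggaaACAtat

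The start sites of 5 SNHG genes with high body density and of MIR194-2HG are shown because a C followed by pyrimidines at the start is the textbook mark of translation-related transcripts. Each is 30 bases of RefSeq sequence (GRCh38.p14), 10 before the annotated start and 20 from it on, and capitals mark a C with at least 4 further C or T whose first C lies within 5 bases of the start. The windows lie at chr6:85678714-85678743 (SNHG5, minus), chr1:28581854-28581883 (SNHG12, minus), chr9:136728165-136728194 (SNHG7, minus), chr11:62855866-62855895 (SNHG1, minus), chr1:28505933-28505962 (SNHG3, plus) and chr11:64893430-64893459 (MIR194-2HG, minus).
SNHG5: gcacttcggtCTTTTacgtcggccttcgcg
SNHG12: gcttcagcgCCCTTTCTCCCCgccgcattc
SNHG7: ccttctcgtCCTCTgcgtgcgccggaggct
SNHG1: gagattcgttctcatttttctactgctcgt
SNHG3: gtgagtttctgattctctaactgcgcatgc
MIR194-2HG: gggtgtccccaCTTCCTCCTTgtgccccga
Such a run was found in 6 of 13 SNHG genes with a promoter sequence (46.2%) and in 8 of 23 MIR hosts (34.8%), against 17 of 31 protein-coding snoRNA hosts (54.8%) and 7408 of all 35116 promoters (21.1%). In other related lists it was in 2 of 10 noncoding hosts (20%) and 10 of 30 protein-coding microRNA hosts (33.3%). It was also in 3 of 13 snoRNP genes (23.1%) and 5 of 16 genes of microRNA processing (31.2%). MIR181A1HG and MIR22HG, the other MIR hosts called between lines, had no such run. A missing run, as in SNHG1 and SNHG3, says only that these letters are not at the annotated start.

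Several SNHG genes had some of the highest body read densities in these cells, while most MIR hosts did not. These densities include any reads from small RNAs inside the bodies. In WT normoxia the median body density was 29.5 CPM per kb over 15 SNHG genes, 0.712 over 26 MIR hosts and 1.29 over all 16686 genes tested. At the TSS the medians were 493, 43.2 and 72.2 CPM per kb. Among all gene bodies SNHG1 ranked 2 by density (232 CPM per kb ± 139, SD, n = 2), SNHG3 ranked 4 (209.8 ± 93.6) and SNHG5 ranked 5 (207 ± 97.4). SNHG12 followed at 95.8 ± 41.7 and SNHG7 at 91.3 ± 44. The spread between the 2 WT normoxia libraries was so wide that the order among SNHG1, SNHG3 and SNHG5, and between SNHG12 and SNHG7, was not resolved. SNHG22 was the exception at 1.19 CPM per kb, under the median of all genes. Between these ends SNHG6 stood at 59.6 ± 4.66 and SNHG4 at 34.6 ± 0.0358 CPM per kb.

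The densest MIR host was MIR663AHG at 101 CPM per kb ± 76.8, and its TSS held the highest density of any TSS tested (10620.3 CPM per kb, rank 1 of 15212). This gene lies beside the centromere of its chromosome, where near-identical copies are known and reads can be assigned to the wrong copy, so its level is uncertain, as is that of MIR4435-2HG, which has a close paralog. Next came MIR31HG at 21.0 ± 3.66, the host of miR-31 and one of the longer units at 104 kb. MIRLET7BHG reached 14.1 ± 0.242, MIR17HG 12.5 ± 0.891 and MIR22HG 3.67 ± 0.641. The lowest member, MIR4300HG, was at 0.000884 CPM per kb. SNHG genes made up 9 of the 10 densest host gene bodies and 8 of the 10 densest host gene TSS, with 8 genes in both.

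**Figure D1:**
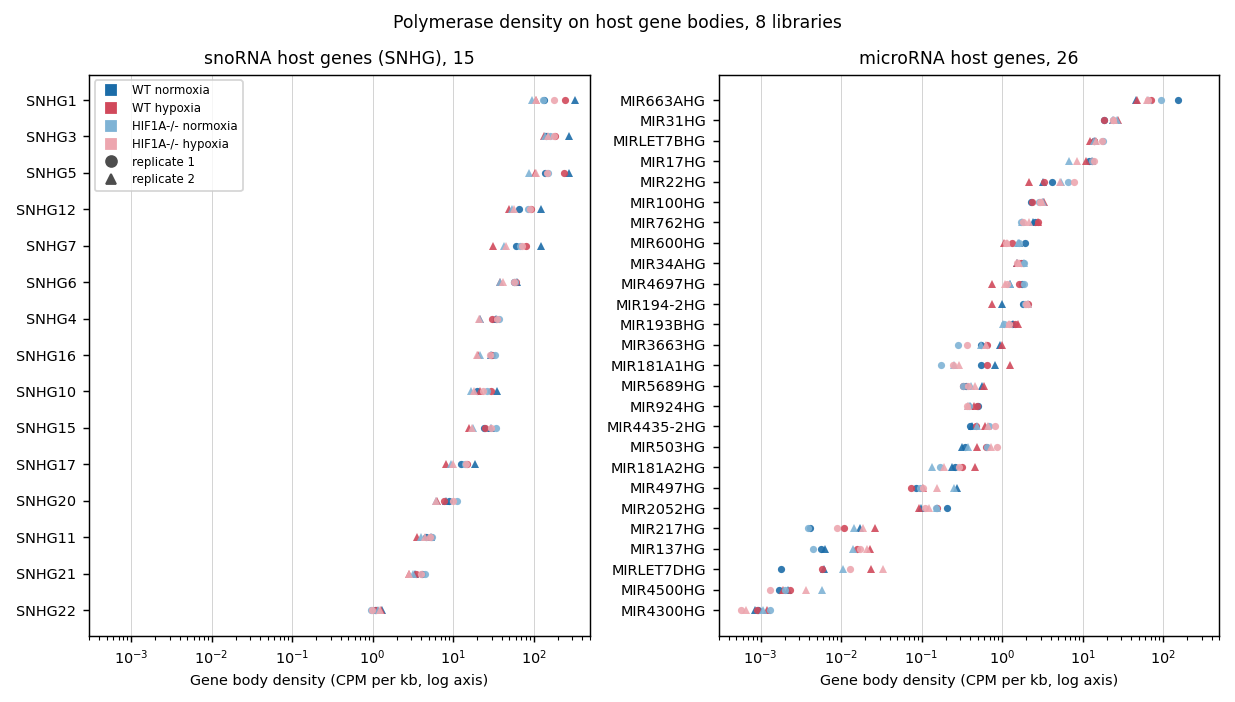
Body density (CPM per kb, log axis) of the 41 host genes tested in gene bodies, SNHG genes on the left and MIR hosts on the right, 1 point per library, coloured by group and shaped by replicate. SNHG genes fill the upper end, and 1 value at 0 (MIRLET7DHG, HIF1A-/- normoxia replicate 1) cannot be drawn on the log axis.

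The 2 classes differed in length too, which matters when levels are read per gene instead of per kb. The median body was 3.27 kb for SNHG genes, 27.0 kb for MIR hosts and 25.1 kb for all genes. SNHG5 had a body of 0.727 kb and MIR924HG one of 544 kb. By CPM per gene, MIR31HG ranked 6 of all bodies and MIR100HG 24. In WT normoxia MIR31HG had 1925 and 2465 CPM, and in the other groups 1923 to 2906. MIR100HG, a 333 kb unit on chromosome 11 (GRCh37 121959810-122292578, minus strand), had 770.5 and 1073 CPM in WT normoxia bodies but only 0 to 3 reads per library in its TSS window.

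The pausing index, the TSS density over the body density, measures how much polymerase sits just past the start relative to the rest of the gene. Reads from small RNAs inside a body would lower it. Its median over a library was 15.7 to 31.5 for SNHG genes and 20.9 to 39.2 for MIR hosts, below the 44.4 to 49.1 for all 14494 genes with both regions. Within the host genes it ran widely. MIR181A2HG had 306 to 645, SNHG22 159.9 to 438 and MIR181A1HG 115 to 245. Low values were found in both classes, in MIR4697HG (1.36 to 6.72), MIR600HG (2.60 to 5.30), SNHG4 (2.81 to 6.64) and SNHG3 (5.07 to 10.3). Those of MIR4697HG and MIR600HG rested on few TSS reads, 4 to 15 and 9 to 25 per library.

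**Figure D2:**
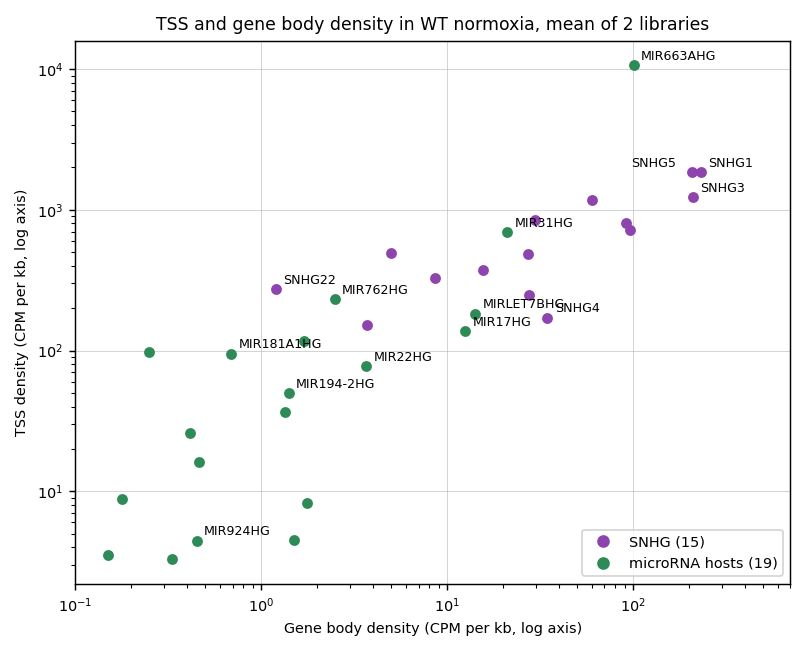
TSS density against body density (CPM per kb, both axes log) in WT normoxia for the 34 host genes tested in both regions, 1 point per gene by class, at the mean of 2 libraries. SNHG genes sit to the upper right, and MIR663AHG stands highest at the TSS.

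In the fit without the replicate block no host gene was called for 90 min of hypoxia against normoxia, and with the block 2 were, both at the TSS in WT cells. In WT gene bodies 0 of 41 host genes passed a false discovery rate of 10% (edgeR quasi-likelihood test), where 0.431% of all 16686 genes were called. DESeq2 called 0 as well (1.05% of all genes), and with the replicate number as a block the count was again 0 (5.51% of all genes). At an unadjusted p under 0.05 there were 2 host genes, 4.88% of those tested against 4.61% of all genes. In HIF1A-/- bodies 0 were called and 0 had an unadjusted p under 0.05, and the share called among all genes was 0%. For the difference of the 2 responses 0 were called with edgeR (0.0539% of all genes) and with DESeq2 (0.408%), and 0 had an unadjusted p under 0.05. The 3 comparisons share samples, since the difference is built from both responses.

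The 2 MIR hosts with an unadjusted p under 0.05 in WT bodies were MIR137HG and MIR600HG. In WT cells MIR137HG, the host of the brain-enriched miR-137, had 0.338 and 0.386 CPM in normoxia and 0.948 and 1.40 CPM in hypoxia. In HIF1A-/- it was at 0.273 and 0.851 CPM in normoxia and 1.03 and 1.28 CPM in hypoxia, at 6 to 33 reads per library. It passed the filter through hypoxia, with 1 of 4 normoxia libraries above 0.5 CPM against all 4 hypoxia libraries, so a higher hypoxia value was favoured by the filter and no direction is read from it. The log2 fold change in WT was 1.65 (SE 0.60, edgeR adjusted p = 0.897) and in HIF1A-/- 1.01 (SE 0.57, adjusted p = 1).

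MIR600HG had 9.61 and 8.0 CPM in WT normoxia and 6.58 and 5.21 CPM in WT hypoxia. In HIF1A-/- it had 8.18 and 7.80 CPM in normoxia and 5.61 and 5.67 CPM in hypoxia, so all normoxia values lay above all hypoxia values. The log2 fold change was -0.61 (SE 0.25, edgeR adjusted p = 0.897) in WT and -0.54 (SE 0.25, adjusted p = 1) in HIF1A-/-. Over the 8 libraries the genes whose body log2 CPM was most like MIR137HG were LINC00672 (Pearson r = 0.985), EFEMP2 (0.975), TPTE2 (0.971), DDR2 (0.970) and LOC729867 (0.969), given as a description over libraries that share group and depth. For MIR600HG they were PAFAH2 (0.974), PBX3 (0.973), HTR7 (0.966), DERL2 (0.964) and BDP1 (0.964).

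MIR181A2HG is of interest because the study lists it among the noncoding RNAs induced by hypoxia, a list drawn from these same samples. That list rests on the study's own DESeq2 calls, so a missing call here is no check of it. In WT cells the MIR181A2HG body gave 10.2 and 9.27 CPM under normoxia against 12.5 and 18.2 CPM under hypoxia. In HIF1A-/- cells it gave 6.55 and 5.30 CPM against 11.5 and 7.40 CPM. Within each line both hypoxia values lay above both normoxia values. The log2 fold change was 0.63 (SE 0.31, edgeR adjusted p = 0.897) in WT and 0.64 (SE 0.32, adjusted p = 1) in HIF1A-/-. The whole of its body lies opposite NR6A1, a nuclear receptor gene on the other strand. The counts were made by strand: of 431 bodies lying inside another gene on the same strand all 431 had 0 reads, against 185 of 876 (21.1%) on the opposite strand.

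At the TSS 0 of 35 host genes were called in WT (0.046% of all 15212 TSS), 0 in HIF1A-/- (0%) and 0 for the difference of responses (0.00657%). DESeq2 called 0 in each (0.0986%, 0% and 0.0197% of all TSS). In HIF1A-/- and for the difference 0 had an unadjusted p under 0.05, and in WT 4 had (11.4% of host genes against 4.02% of all TSS): MIR181A2HG was higher in hypoxia, and MIR22HG (log2 -0.68), MIR663AHG and MIR600HG (log2 -1.18) were lower. With the replicate block, where 1.01% of all TSS were called, MIR181A2HG rose by a log2 fold change of 0.82 (edgeR adjusted p = 0.0542) and MIR663AHG fell by 0.82 (adjusted p = 0.0180), while without the block the values were 0.88 and -0.88 with an adjusted p of 0.922 for both. In WT cells the TSS of MIR181A2HG gave 46.2 and 60.6 CPM under normoxia and 60.2 and 131 CPM under hypoxia, so the groups overlapped and replicate 2 of hypoxia stood far above the rest. MIR663AHG went from 8226 and 3478 CPM to 3947 and 2278 CPM, again with overlap, and is the uncertain pericentromeric gene.

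By direction alone, the 15 SNHG bodies all had negative log2 fold changes in WT hypoxia, with a median of -0.33 against -0.02 over all genes. For MIR hosts 14 were above 0 and 12 below (median 0.05). In HIF1A-/- the SNHG genes were 7 above 0 and 8 below (median -0.01), and this rested on single libraries as well: 14 and 1 (median 0.38) without normoxia replicate 1, 2 and 13 (-0.32) without normoxia replicate 2, 1 and 14 (-0.33) without hypoxia replicate 1 and 14 and 1 (0.23) without hypoxia replicate 2. The WT pattern rested on replicate 2 of either WT group: without WT normoxia replicate 2 it was 6 above and 9 below (median -0.15), and without WT hypoxia replicate 2 it was again 6 and 9 (median -0.08). The 38 tested protein-coding genes that host snoRNAs were 3 above and 35 below (median -0.29), and went to 11 and 27 (median -0.12) and to 15 and 23 (median -0.02) without those libraries.

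SNHG1 shows what lay behind these signs. WT cells gave 389 and 960.1 CPM over its body under normoxia and 712 and 310.2 CPM under hypoxia, and HIF1A-/- cells gave 374 and 275 CPM, then 522 and 314 CPM. Replicate 1 was the lower of the pair in WT normoxia and the higher in the other 3 groups. SNHG7 ran the same way, with 119 and 241 CPM in WT normoxia and 158 and 62.4 in WT hypoxia, and so did SNHG3 (567 and 1090.1, then 720.3 and 533), SNHG5 (101 and 201, then 174 and 75.3) and SNHG12 (154 and 290.3, then 216 and 113). For each of these genes the 2 WT normoxia libraries lay further apart than the means of the 2 WT groups.

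**Figure D3:**
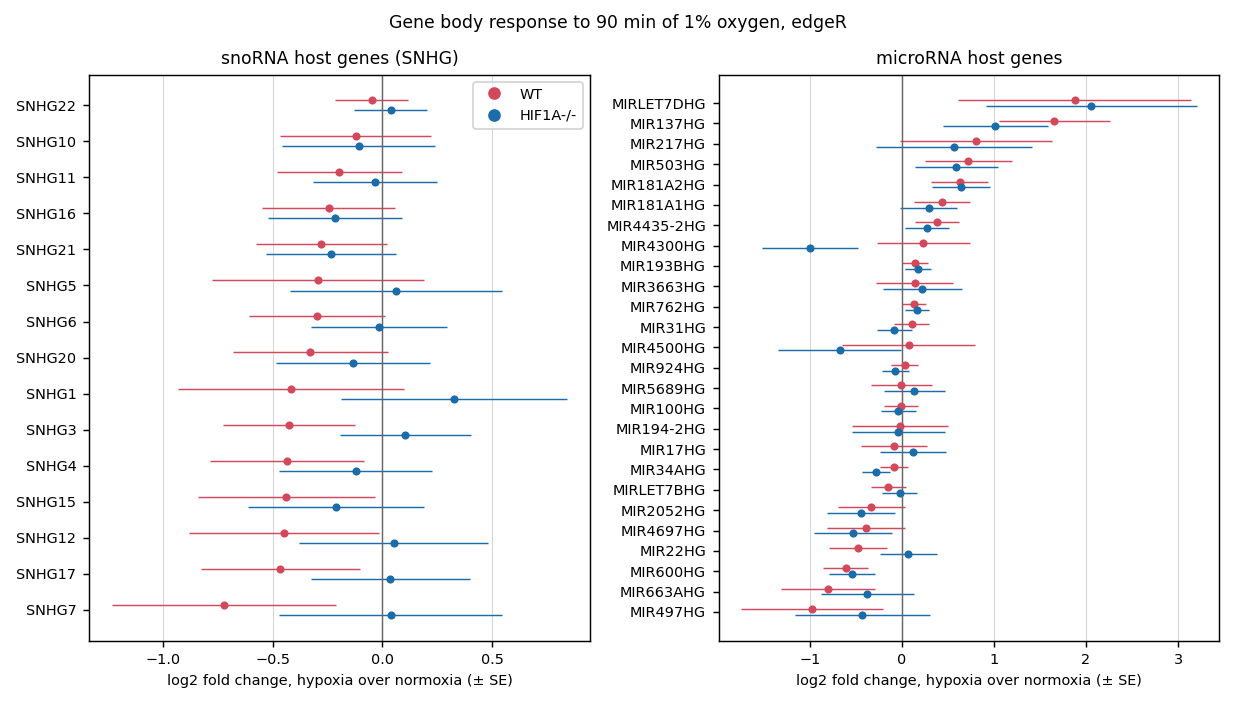
log2 fold change of hypoxia over normoxia in gene bodies for the host genes in WT and HIF1A-/- cells, 1 point per gene by class with its SE. No host gene passed the false discovery rate of 10% in either line, and all 15 SNHG genes lie below 0 in WT.

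Most snoRNA hosts swung the same way between replicates in gene bodies, and their TSS medians did not. The median log2 ratio of replicate 2 to replicate 1 over SNHG bodies was 0.30 in WT normoxia (13 of 15 above 0) and -0.60, -0.60 and -0.52 in WT hypoxia, HIF1A-/- normoxia and HIF1A-/- hypoxia (1 of 15 above 0 in each). SNHG22 was the one above 0 in every group. The protein-coding snoRNA hosts gave 0.27 (33 of 38 above 0), -0.47, -0.44 and -0.40. MIR hosts gave 0.03, 0.06, 0.02 and 0.08, and all genes 0.05, 0.03, 0.11 and 0.10. At the TSS the SNHG medians were -0.10, -0.05, -0.07 and -0.10, with 6, 7, 4 and 4 of 15 above 0. Single genes still differed there: in WT normoxia the TSS of SNHG1 had 856 and 1182 CPM and that of SNHG3 582 and 771 CPM, while SNHG5 had 1061 and 972 CPM. Body depth ranged by library as given above, and its part in this swing was not tested. The part of reads from small RNAs inside these bodies was not tested either.

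**Figure D4:**
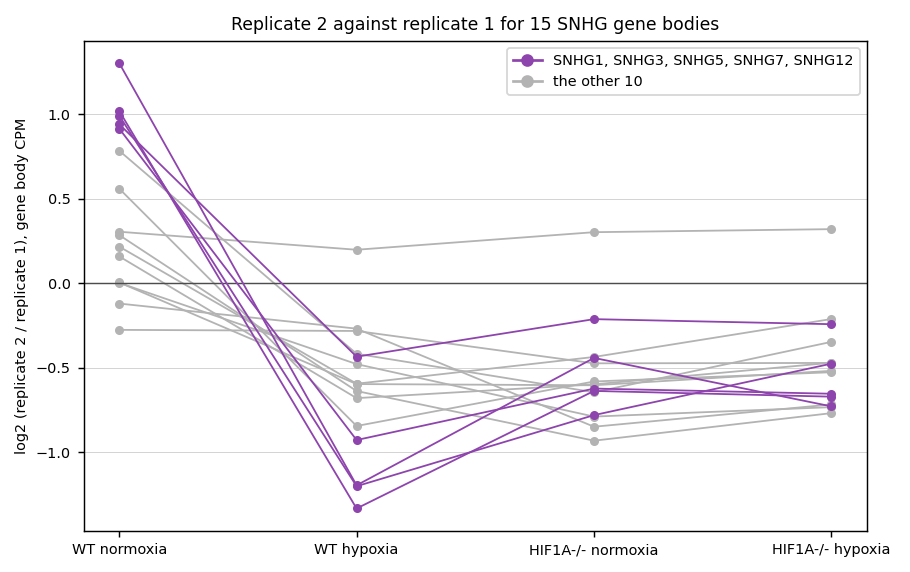
log2 ratio of replicate 2 to replicate 1 of gene body CPM in each group for the 15 SNHG genes, 1 line per gene across the 4 groups, with no order implied among groups and 5 genes of high body density in purple. In WT normoxia 13 of 15 lie above 0, and in each of the other 3 groups 1 of 15 does, SNHG22.

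The pausing index gave no called host gene either, 0 of 34 in WT hypoxia against normoxia (0.193% of 14494 genes) and 0 between lines in normoxia (0.0966%) with edgeR. At an unadjusted p under 0.05 there were 0 and 3 (8.82% against 6.36% of all genes). For SNHG genes 14 were above 0 and 1 below in WT hypoxia (median log2 change 0.25), which went to 9 and 6 without WT normoxia replicate 2 and to 7 and 8 without WT hypoxia replicate 2. The 3 between lines, all higher in HIF1A-/-, were SNHG17 (log2 0.82, edgeR adjusted p = 0.747), MIR762HG (log2 0.48, adjusted p = 0.763) and SNHG1 (log2 0.82, adjusted p = 0.771).

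Other members stood out by their p within a comparison but were not called. In WT bodies these were MIR4435-2HG (log2 fold change 0.38, SE 0.24), MIR663AHG (-0.80, SE 0.51) and MIR22HG (-0.48, SE 0.31), all at an edgeR adjusted p of 0.897. In HIF1A-/- bodies MIR34AHG, the host of the p53 target miR-34a, had a log2 fold change of -0.28 (SE 0.15) with hypoxia. MIR4300HG had -0.998 (SE 0.52), at 6 to 15 reads per library. It passed the filter mainly through HIF1A-/- normoxia, with 2 libraries above 0.5 CPM there and 0 in HIF1A-/- hypoxia, which favours a fall. MIRLET7DHG had 2.05 (SE 1.15) from 0 and 0.284 CPM in normoxia to 0.344 and 0.888 CPM in hypoxia, a few reads per library. It passed the filter through hypoxia libraries alone, which favours a rise. These 3 had an edgeR adjusted p of 1. For the difference of the 2 responses the smallest p values in each direction belonged to MIR4300HG (1.23), SNHG3 (-0.53), MIR22HG (-0.55), SNHG7 (-0.76), MIR34AHG (0.19) and MIR137HG (0.64), all with an adjusted p of 1. The filter favours a positive difference for MIR4300HG, with 0 WT normoxia libraries above 0.5 CPM too, so no direction is read from it.

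The line comparisons gave the only calls in the reported fit. They share no samples with each other, but each shares its groups with the hypoxia comparisons. MIR181A1HG, the host of the first miR-181a and miR-181b pair (GRCh37 chr1:198777131-198905557, minus strand), was lower in HIF1A-/- cells. Over its body WT cells had 70.9 and 105 CPM under normoxia and 84.4 and 159 CPM under hypoxia, where HIF1A-/- cells had 22.5 and 32.6 CPM, then 31.4 and 37.6 CPM. Every WT library lay above every HIF1A-/- library. The log2 fold change was -1.69 in normoxia (SE 0.313, edgeR adjusted p = 0.0526) and -1.83 in hypoxia (SE 0.313, adjusted p = 0.0270).

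It was the single member of 41 called between lines in normoxia, where 1.78% of all bodies were called, and 1 of 2 called in hypoxia, where 4.26% were. At the TSS of MIR181A1HG the values were 42.4 and 62.2, 49.6 and 116, 11.1 and 34.3, and 20.9 and 31.1 CPM in the same order, again without overlap between the lines. The TSS fold changes were -1.14 (adjusted p = 0.559) and -1.68 (adjusted p = 0.158), neither called, though 3 and 5 of the 15 alternatives called them, the block among them (0.00178 and 2.4e-05). The body call was lost when single libraries were left out: in normoxia without WT normoxia replicate 1 (adjusted p = 0.122), without WT normoxia replicate 2 (0.370) or without HIF1A-/- normoxia replicate 1 (0.244), and in hypoxia without WT hypoxia replicate 2 (0.148) or either HIF1A-/- hypoxia library (0.167 and 0.102). Its range over the 15 alternatives was 1.8e-05 to 0.370 in normoxia and 9.4e-07 to 0.167 in hypoxia.

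The other called body was MIR22HG (GRCh37 chr17:1614797-1618565, minus strand), higher in HIF1A-/- cells. The WT libraries stood at 15.6 and 12.1 CPM under normoxia and 12.3 and 8.04 CPM under hypoxia, the HIF1A-/- libraries at 25.1 and 20.4 CPM and at 29.1 and 20.0 CPM. All HIF1A-/- libraries lay above all WT libraries. In hypoxia the log2 fold change was 1.27 (SE 0.314, edgeR adjusted p = 0.0968, range over alternatives 9.2e-04 to 0.521), and in normoxia it was 0.72 (adjusted p = 0.552). The hypoxia call was lost without either WT normoxia library (0.157 and 0.155), either WT hypoxia library (0.127 and 0.521) or HIF1A-/- hypoxia replicate 1 (0.462). At the TSS of MIR22HG the fold change in hypoxia was 0.87 (adjusted p = 0.174).

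At the TSS 0 of 35 host genes were called between lines in normoxia with edgeR (0.657% of all TSS) and 0 with DESeq2 (0.901%). There 4 had an unadjusted p under 0.05 with edgeR (11.4% against 7.99% of all TSS). In hypoxia edgeR called 1 (1.1%). That one was MIR194-2HG, host of the gut-enriched miR-192 and miR-194. Its TSS had 23.6 to 30.9 CPM in the 4 WT libraries, against 52.8 and 45.5 CPM in HIF1A-/- cells under normoxia and 52.8 and 53.5 CPM under hypoxia, with no overlap. The log2 fold change was 1.13 in hypoxia (SE 0.233, edgeR adjusted p = 0.0521), lost without any 1 of the 4 hypoxia libraries (0.199 to 0.395), and 0.86 in normoxia (adjusted p = 0.256). Its body, at 1.31 to 3.74 CPM, overlapped between the lines.

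**Figure D5:**
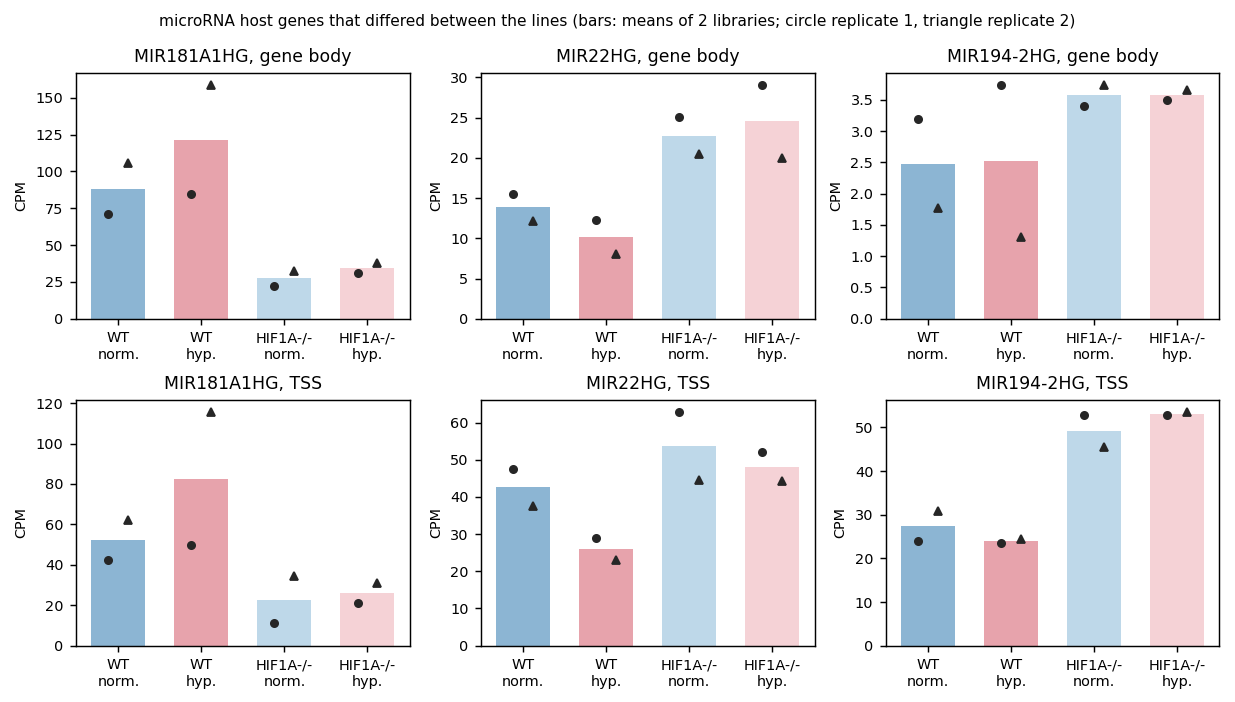
CPM of the 3 host genes called between lines, in gene bodies (upper row) and at the TSS (lower row), with bars at the mean of 2 libraries in each group and a point for each library (circle for replicate 1, triangle for replicate 2). HIF1A-/- libraries lie below all WT libraries for MIR181A1HG in both regions, above them for the MIR22HG body and the MIR194-2HG TSS, and the other 2 panels show overlap.

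With the replicate number as a block many more genes were called in general, and the host genes must be read against that. In bodies 5 host genes were called in normoxia (10.3% of all genes) and 7 in hypoxia (28.2% of all genes). Higher in HIF1A-/- was MIR22HG in both. Lower in both were MIR181A1HG, MIR762HG, MIR3663HG and MIR193BHG, joined in hypoxia by MIR924HG and MIR181A2HG.

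MIR762HG had 45.5 to 52.5 CPM in the WT libraries and 32.0 to 40.4 in the HIF1A-/- libraries, a separation that edgeR without the block placed at an adjusted p of 0.166 in normoxia (log2 -0.53) and 0.119 in hypoxia (-0.50) and DESeq2 at 0.0451 and 0.0389. Part of its body (29.4%) lies opposite BCL7C. The blocked values of the rest were small for MIR193BHG (-0.38 and -0.35) and MIR924HG (-0.34), and larger for MIR3663HG (-0.84 and -0.75) and MIR181A2HG (-0.74, adjusted p = 0.0902). Both miR-181a hosts were thus among the blocked calls lower in HIF1A-/- hypoxia.

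At the TSS the block gave 5 calls in normoxia (4.29% of all TSS) and 9 in hypoxia (14.4%). Higher in HIF1A-/- in both were MIR194-2HG and MIR663AHG (0.62 and 1.01). Higher in normoxia alone were MIR7-3HG (3.61) and SNHG17 (0.40), and in hypoxia alone MIRLET7BHG (0.85), MIR22HG, MIR31HG (0.58) and SNHG22 (0.53), though whether the 2 conditions differed was not tested for these. Lower were MIR181A1HG in both, and MIR181A2HG (-0.83) and MIR34AHG (-0.44) in hypoxia.

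MIRLET7BHG, a let-7 host, had 101 and 101 CPM at the TSS in WT cells under normoxia against 203 and 98.2 CPM in HIF1A-/- cells, and 78.2 and 68.0 CPM against 170.0 and 105 CPM under hypoxia, so the lines overlapped in normoxia and not in hypoxia. MIR7-3HG passed the filter mainly through HIF1A-/- libraries, of which all 4 were above 0.5 CPM against 1 of 4 in WT, which favours a higher value there. It rested on few reads, 23 in HIF1A-/- against 2 in WT in normoxia (ratio of shares 13.4, exact interval at 95% for counting error 3.31 to 117) and 11 against 5 in hypoxia (3.24, 1.04 to 11.9). Of the members named for a small p but not called in gene bodies, MIR4435-2HG had a body log2 fold change of 0.52 in normoxia and 0.42 in hypoxia. MIRLET7BHG had 0.31 in hypoxia, and MIR4500HG had 0.98 in normoxia (SE 0.69, 8 to 28 reads per library). MIR4500HG was above 0.5 CPM in 0 WT normoxia libraries and 1 HIF1A-/- normoxia library, so the filter favours that direction. MIR17HG, host of the oncogenic miR-17 cluster, had 39.3 to 79.6 CPM across all libraries with the lines overlapping. SNHG bodies between lines were 2 above 0 and 13 below in normoxia (median -0.30) and 9 above and 6 below in hypoxia (median 0.05). These splits followed single libraries. In normoxia they went to 8 and 7 (median 0.02) without HIF1A-/- replicate 2, 5 and 10 (-0.10) without WT replicate 2 and 0 and 15 (-0.66) without HIF1A-/- replicate 1. In hypoxia they went to 13 and 2 without WT replicate 1, 2 and 13 without WT replicate 2, 1 and 14 without HIF1A-/- replicate 1 and 12 and 3 without HIF1A-/- replicate 2.

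Related gene lists were set beside the host genes as context. Of 16 other noncoding hosts 11 were tested, of 40 protein-coding snoRNA hosts 38, of 33 protein-coding microRNA hosts 32, and with them 18 of 20 snoRNP genes and 19 of 21 genes of microRNA processing. In WT hypoxia 0 genes of these lists were called in bodies with edgeR, DESeq2 called 0, and 0 of the 116 genes had an unadjusted p under 0.05. The medians were -0.15, -0.29, -0.01, -0.17 and -0.12 in that order, with 3, 3, 15, 3 and 7 genes above 0. In HIF1A-/- hypoxia and for the difference of responses both tools called 0 too, with 1 and 0 genes at an unadjusted p under 0.05. Between lines SLIT2, which hosts a miR-218 gene, was lower in hypoxia (log2 fold change -2.21, SE 0.475, edgeR adjusted p = 0.0592). DESeq2 called SLIT2 in normoxia too, among 2 of the 116 list genes, where it called 3.93% of all genes. In hypoxia it called 6 of the 116, H19, EVL, EGFL7 and PRRC2A among them, where it called 8.01% of all genes. The genes that release and load the small RNAs, those of the snoRNP core and of the Drosha, Dicer and Argonaute steps, gave no call between the lines with either tool in the fits without the block. With the block, where the shares of all genes called are those given above, CTDSPL of the protein-coding microRNA hosts was lower in WT hypoxia (log2 fold change -0.35). Between lines, again with the block, LIN28B was lower in normoxia (log2 fold change -0.99), TCOF1 and AGO1 were higher in hypoxia (0.32 and 0.32) and TNRC6C was lower in hypoxia (-0.23), named after their values were seen.

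Promoters were also read for the letters that hypoxia-inducible factors bind, ACGTG or GCGTG on either strand, in the 300 bases from 250 before to 50 past the RefSeq start. They were found in 22 of 36 host genes with a promoter (61.1%), 12 of 23 MIR hosts (52.2%) and 10 of 13 SNHG genes (76.9%), against 17012 of all 35116 (48.4%). ACGTG alone was in 11 host genes (30.6%, against 21.4% of all) and GCGTG in 17 (47.2%, against 36.5%). By class, ACGTG was in 2 SNHG genes (15.4%) and 9 MIR hosts (39.1%), and GCGTG in 9 (69.2%) and 8 (34.8%). Either was in 22 of 31 protein-coding snoRNA hosts (71%), 13 of 13 snoRNP genes (100%) and 9 of 16 genes of microRNA processing (56.2%). For other noncoding hosts it was 5 of 10 (50%), and for protein-coding microRNA hosts 15 of 30 (50%). A match of 5 letters is a description of the sequence, not a binding site. No host gene with or without it was called for hypoxia against normoxia in the fit without the block.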

How the data were processed

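PRO-seq reads were counted by the authors with featureCounts (Subread 1.6.2) after trimming and unspliced HISAT2 2.1.0 alignment to GRCh37/hg19, with SAMtools 1.5 keeping mapping quality above 10. Reads from repeated sequence are therefore under-counted. The deposited counts are whole reads per gene body and per TSS window, 1 TSS and 1 body per gene. From them CPM was computed on library totals, and TMM-scaled counts were tested with edgeR 4.0.16 (quasi-likelihood, R 4.3.3) in 1 fit of 4 group means per table, over genes above 0.5 CPM in at least 2 libraries, at a false discovery rate of 10% over all genes. The pausing index was fitted over both tables with a term per library. DESeq2 1.42.0, other scalings and filters, the replicate block and each library left out were alternatives (15 per fit). Members and gene lists were chosen with earlier results of these data known. Genes named were those called in any comparison with or without the block, the 3 with the smallest p each way per body comparison, those the study lists, the 5 densest per class, and hosts of well-known small RNAs. MIR143HG and SNHG14 of that rule were not analysed here.

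Over all genes, same-numbered libraries deviated together in every pair of groups (r 0.493 to 0.844 in bodies and 0.217 to 0.522 at the TSS, 6 pairs of groups). The replicate block rests on this check and not on a label. Over SNHG bodies alone, r for WT normoxia was -0.658 with WT hypoxia, -0.061 with HIF1A-/- hypoxia and 0.092 with HIF1A-/- normoxia. Among the other groups it was 0.471 to 0.869. At the TSS the SNHG values ran from -0.006 to 0.767. For SNHG bodies the check therefore does not show a pairing of WT normoxia with the other groups. Intervals cover counting error only. The ratios between replicates and the counts of direction per class without single libraries were added after seeing the data. Not every called gene of the related lists is reported here. The fits were tested on simulated data with the same spread for all genes and no shift between replicates. That test does not speak to the replicate swings seen here.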

Additional observations from a re-analysis of the deposited data

How the results depend on the processing

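Of 887 alternatives to 60 named values, 794 kept their direction and side of the threshold, 15 lost a call, 57 gained one and 21 changed sign. The replicate block gave 24 of the gains and fitting without a filter on low counts 13. With 2 libraries a group, calls near the threshold follow single libraries, short or rarely read genes such as MIR137HG and MIRLET7DHG carry a handful of reads, and no level of small RNA was measured.

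With the replicate block (the numbers taken to pair the samples), host genes called went from 1 to 5 and from 2 to 7 in bodies between lines in normoxia and hypoxia. At the TSS they went from 0 to 2 for WT hypoxia, from 0 to 5 between lines in normoxia and from 1 to 9 in hypoxia. The block changed no other count. Without a filter on low counts the TSS counts were 2 for WT hypoxia (0.356% of all TSS), 1 for HIF1A-/- hypoxia (0.0113%), and 5 (2.3%) and 8 (6.01%) between lines in normoxia and hypoxia. Fitting only the groups compared gave 7 at the TSS between lines in hypoxia (6.17%). DESeq2 gave 2 in bodies between lines in normoxia (3.93%) and 3 in hypoxia (8.01%). With 1 library left out the body counts between lines ran from 0 to 1 in normoxia and 0 to 2 in hypoxia, and the TSS counts from 0 to 2 and from 0 to 6. The causes were not tested.

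Log2 changes in WT hypoxia that changed sign were near 0 or rested on 1 library. Without WT normoxia replicate 1, MIR663AHG was at 0.35 and MIR31HG at -0.05. Without WT hypoxia replicate 2, MIR31HG was at -0.19, MIR17HG at 0.058, SNHG1 at 0.08 and SNHG5 at 0.21. Without WT normoxia replicate 2, SNHG1 was at 0.35, SNHG3 at 0.10, SNHG5 at 0.27 and SNHG12 at 0.056. Over all libraries left out, the lowest and highest values were -1.43 and 0.35 for MIR663AHG, -0.19 and 0.36 for MIR31HG, -0.23 and 0.058 for MIR17HG, -1.16 and 0.35 for SNHG1, -0.81 and 0.10 for SNHG3, -1.04 and 0.27 for SNHG5, -1.01 and 0.056 for SNHG12 and -0.23 and 0.23 for MIR100HG. MIR100HG, at -0.01 in the reported fit, moved to 0.022 with library totals, 0.034 with upper-quartile factors, 0.0012 with DESeq2, 0.0093 with the stricter filter and 0.011 with only the groups compared. The difference of responses of MIR137HG ran from -0.31 (without HIF1A-/- normoxia replicate 2) to 1.22.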
